A study of Mus musculus with 13 samples.

Results

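The 9 genes described here, Aldh1a1, Aldh1a2, Aldh1a3, Rarb, Crabp1, Crabp2, Cyp26a1, Cyp26b1 and Cyp26c1, make, bind, sense and break down retinoic acid, and were taken by symbol from the 27998 genes of each count matrix. All mice were wild-type C57Bl/6J, and no group carried a transgene or received an agent. The study loaded single cells of whole embryos without head and limbs at E8.5 (1 matrix analysed here) and E10.5 (2 libraries), and of hearts at E12.5, E14.5 and E16.5 (2 libraries each) and at postnatal day 3 (P3, 1 matrix that pooled 2 samples of the labels under 2 barcode suffixes), on the 10x Genomics droplet platform, which counts unique molecular identifiers (UMIs) at the 3′ ends of transcripts. Of the 13 samples on record, 10 matrices could be read. Nothing in the sources used here says how many embryos or hearts entered a suspension, so that the spread between 2 libraries of a stage may be partly technical. Barcodes with at least 2000 UMIs were kept, 80741 in all and 4928 to 14675 per matrix, out of matrices that held 67141166 to 259041468 UMIs each.

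Barcodes were sorted into classes by a single gene each, since no cell annotation was used here. The gates were Upk3b, a uroplakin of the epicardium and other mesothelia, Col1a1, a fibrillar collagen of fibroblasts and mesenchyme, Tnnt2, the cardiac troponin T of cardiomyocytes, and Cdh5, the VE-cadherin of endothelium. In embryos Meox1 for paraxial mesoderm, Sox2 for neural cells and Sox10 for neural crest were added. In hearts the Upk3b class held 215 and 293 barcodes at E12.5, 80 and 73 (E14.5), 63 and 36 (E16.5) and 21 at P3. Barcodes that passed both the Upk3b and the Col1a1 gate were placed in the Upk3b class, doublets of both included, and only 92 and 118, 9 and 8, 1 and 0, and 1 of its barcodes passed the Upk3b gate alone, so that the later Upk3b class consists almost wholly of barcodes with Col1a1. The Col1a1 class held 374 to 704 per embryonic library and 1656 at P3. The Tnnt2 class held 2640 to 4043 and 7048, and the Cdh5 class 330 to 863 and 567. Other markers of each cell type were highest in their own class for 9 or 10 of 10 epicardial markers, 11 of 11 cardiomyocyte markers and 9 of 9 endothelial markers in the heart libraries, but for only 5 or 6 of 8 mesenchymal markers in the Col1a1 class. At E8.5 the label Upk3b was weak, with 4 of 10 markers highest in that class of 22 barcodes, and at E10.5 with 7 and 6 of 10. Summed erythroid transcripts, mostly globins, varied between libraries, from 1212 to 29107 UMIs per 1000000 in the embryonic heart Upk3b class, and their part in the results was not tested. The largest number of barcodes that any 2 libraries shared was 264.

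Retinoic acid is made from vitamin A. Retinol is oxidised to retinal, and retinaldehyde dehydrogenases (Aldh1a1, Aldh1a2 and Aldh1a3) turn retinal into retinoic acid. The acid is carried in the cytosol by the binding proteins Crabp1 and Crabp2, acts in the nucleus through receptors such as Rarb, and is oxidised by the cytochrome P450 enzymes Cyp26a1, Cyp26b1 and Cyp26c1. In the embryo Aldh1a2 is the main source of the signal, and sources and sinks lie in neighbouring tissues. In the heart, retinoic acid shapes the inflow region early and the epicardium is a known site of synthesis later.

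The promoters of Rarb and Cyp26a1 are shown because they held the repeat with 5 bases between its copies that is described below. Both genes are textbook targets of the signal that they sense and remove. In the 300-base windows of RefSeq (build GRCm38.p6, 250 bases before to 50 after the start), 7 of the 9 genes were present, in 8 windows. Both strands were searched for direct repeats of the retinoid receptor hexamers. The hexamer was AGGTCA, or GGGTCA with another base in front, or the same with T in the third place, which makes it AGTTCA for the former and GGTTCA for the latter. Repeats with 5 bases between the copies lay in 32 of 32851 windows (0.0974%), and Rarb and Cyp26a1 were among them. Repeats with 1 base between lay in 73 windows (0.222%) and repeats with 2 bases in 88 (0.268%). None of the 7 genes with a window had either there, and the others could not be searched. The lines give the 250 bases before the start, 5′ to 3′, with the repeat in capitals. In Rarb the repeat began 53 bases before the start. In Cyp26a1 it began 32 bases before and reads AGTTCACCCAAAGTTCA on the reverse strand. A match is a string of letters only, and no binding was measured here.
Rarb, chr14:16575477-16575726, minus strand: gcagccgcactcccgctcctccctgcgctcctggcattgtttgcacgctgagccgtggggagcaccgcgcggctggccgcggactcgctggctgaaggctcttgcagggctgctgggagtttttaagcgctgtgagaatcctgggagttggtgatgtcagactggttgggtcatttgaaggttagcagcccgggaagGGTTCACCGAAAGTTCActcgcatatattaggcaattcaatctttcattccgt
Cyp26a1, chr19:37697558-37697807, plus strand: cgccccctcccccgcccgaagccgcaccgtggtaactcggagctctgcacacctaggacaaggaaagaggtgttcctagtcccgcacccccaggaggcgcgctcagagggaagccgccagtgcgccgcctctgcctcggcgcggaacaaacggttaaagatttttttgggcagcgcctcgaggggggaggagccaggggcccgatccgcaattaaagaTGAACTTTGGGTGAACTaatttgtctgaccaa

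The dehydrogenases came first, and Aldh1a2, the main embryonic enzyme of retinoic acid synthesis, was high in the Upk3b class of every heart library. Its level, in UMIs per 1000000 UMIs of the class as for all levels that follow, was 146 and 150 (E12.5), 190 and 193 (E14.5), 234 and 225 (E16.5), and 184 at P3 (exact Poisson 95% interval 146 to 230, counting error only). The Tnnt2 class kept it between 0.0806 and 0.693 and in the Cdh5 class between 0 and 0.811. Barcodes of 1 to 100 UMIs, which hold mainly free RNA, gave 2.21 to 6.04, above the levels of both those classes. Averaged over E12.5 to E16.5, the log2 fold change of the Upk3b class over the mean of the other 3 classes was 7.93 ± 0.10 (SE, 2 libraries per stage, adjusted p = 2.1e-30, quasi-likelihood test of edgeR, adjusted by Benjamini-Hochberg across 13757 genes). With the other classes summed before the comparison it was 6.84 ± 0.08.

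Aldh1a1, an enzyme of the same family better known from the adult liver and dorsal retina, followed the same classes at lower counts. Its level in the Upk3b class was 20.2 and 10.8 (E12.5), 10.8 and 16.8 (E14.5), 29.5 and 14.9 (E16.5), and 52.0 at P3 (32.6 to 78.8, from 22 UMIs). The P3 level came mostly from 1 of the 2 barcode suffixes, with 84.9 (51.1 to 133) from 19 UMIs in suffix 1 and 15.1 (3.11 to 44.0) from 3 UMIs in suffix 2. Replicates within a stage differed as much as the stages did up to E16.5. Against the other classes summed, the log2 fold change was 5.62 ± 0.31 (SE, adjusted p = 4.1e-13). In the Upk3b class, 54 of 57 and 36 of 38 barcodes with an Aldh1a1 UMI at E12.5 also had an Aldh1a2 UMI, against 68.4% and 71.0% of those without, whose median depth was lower (16870 and 15123 UMIs against 20535 and 21166). At the later stages the direction varied between libraries. The shares were 85.7% and 90.9% with against 79.5% and 67.7% without (E14.5), 85.7% and 85.7% against 92.9% and 75.9% (E16.5), and 5 of 10 against 72.7% at P3, from 7 to 21 barcodes with Aldh1a1.

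Aldh1a3, the enzyme of the anterior head and optic structures, was low in the heart. It gave 0.983 to 8.77 in the embryonic Upk3b class, where the libraries of a stage did not agree, with 2.64 and 8.77 at E12.5. It did not pass the test there (log2 fold change 1.23 ± 0.54, SE, adjusted p = 0.059). Of the 8 genes tested in this comparison (Cyp26c1 had no UMI in any heart class), 3 were called, Aldh1a1 and Aldh1a2 higher and Cyp26b1 lower, beside 51.2% of all genes tested. The lower call of Cyp26b1 rested on few UMIs and was lost without E14.5 replicate 2 (log2 fold change -3.21, adjusted p = 0.062) or E16.5 replicate 1 (-3.57, adjusted p = 0.075).

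**Figure D1:**
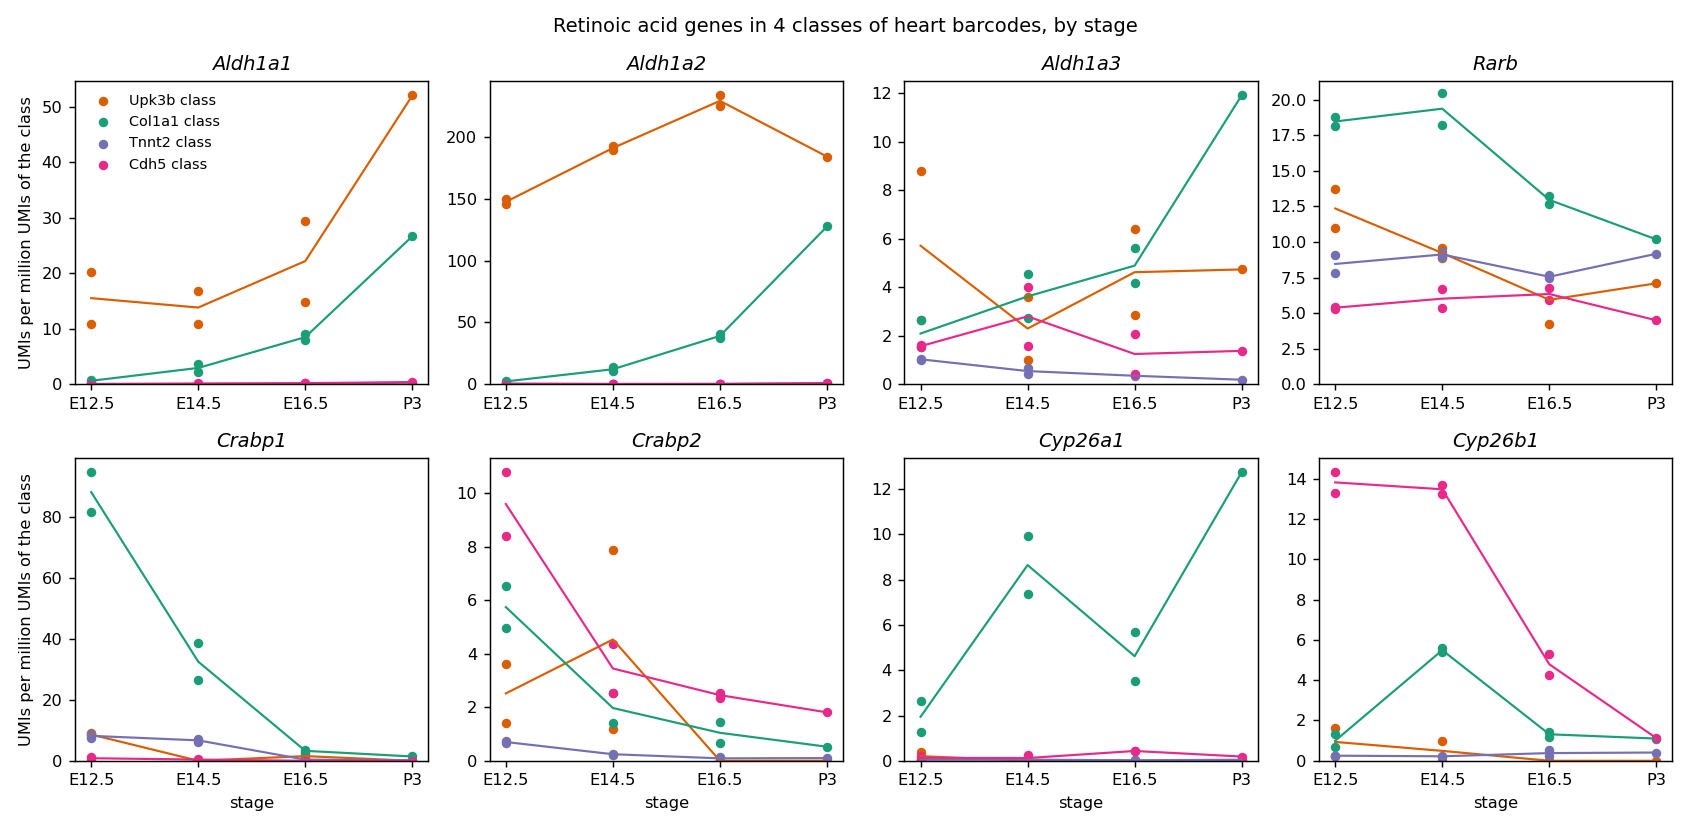
Level of 8 retinoic acid genes (y axis, UMIs per 1000000 UMIs of the class, a separate scale per gene) by stage (x axis) in the Upk3b, Col1a1, Tnnt2 and Cdh5 classes of heart barcodes, 1 point per library. Aldh1a2 lies between 146 and 234 in the Upk3b class at every stage and climbs in the Col1a1 class from 1.81 to 128, while Crabp1 falls there from 94.9 to 1.42.

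The Col1a1 class gained Aldh1a2 with every stage. Its level was 1.81 and 2.60 (E12.5), 10.6 and 13.5 (E14.5), 37.8 and 40.4 (E16.5), and 128 at P3 (123 to 133). The 2 libraries of a stage were closer to each other than to any other stage, and no stages overlapped. The log2 fold change from E12.5 to E16.5 was 4.23 ± 0.19 (SE, adjusted p = 1.9e-16) in the Col1a1 class, against 0.61 ± 0.12 (adjusted p = 3.2e-04) in the Upk3b class, where the call was lost without E16.5 replicate 1 (0.58, adjusted p = 0.059). The change in the Col1a1 class exceeded the mean change of the other 3 classes by 4.65 ± 0.46 on the log2 scale (SE, adjusted p = 8.3e-09). Of those 3 classes, the Tnnt2 and Cdh5 classes lay below free RNA, so part of this difference rests on changes at background level.

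The share of barcodes with Aldh1a2 was also higher at each later stage. After every barcode was thinned to 2000 UMIs, 0.535% and 0.142% of Col1a1 class barcodes had an Aldh1a2 UMI at E12.5, 1.74% and 2.43% (E14.5), 6.18% and 6.96% (E16.5), and 17.7% at P3. Without thinning the shares were 1.87% and 2.41%, 8.71% and 9.55%, 29.9% and 24.9%, and 44.6%. With doubled gates, which left 118 and 321 barcodes at E12.5, the E12.5 shares were 1.69% and 0.623% thinned and 5.08% and 4.05% unthinned, and the P3 shares 18.3% and 45.4%. In the Upk3b class the thinned shares were 23.3% to 33.3% in the embryonic hearts and 19.0% at P3, and in the Tnnt2 class, which served as the background, they were 0% to 0.241%. The 0.142% of the Col1a1 class in E12.5 replicate 2 lay within that background. Median depths before thinning were 9107 to 15330 UMIs in the Col1a1 class and 11445 to 20284 in the Tnnt2 class.

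**Figure D2:**
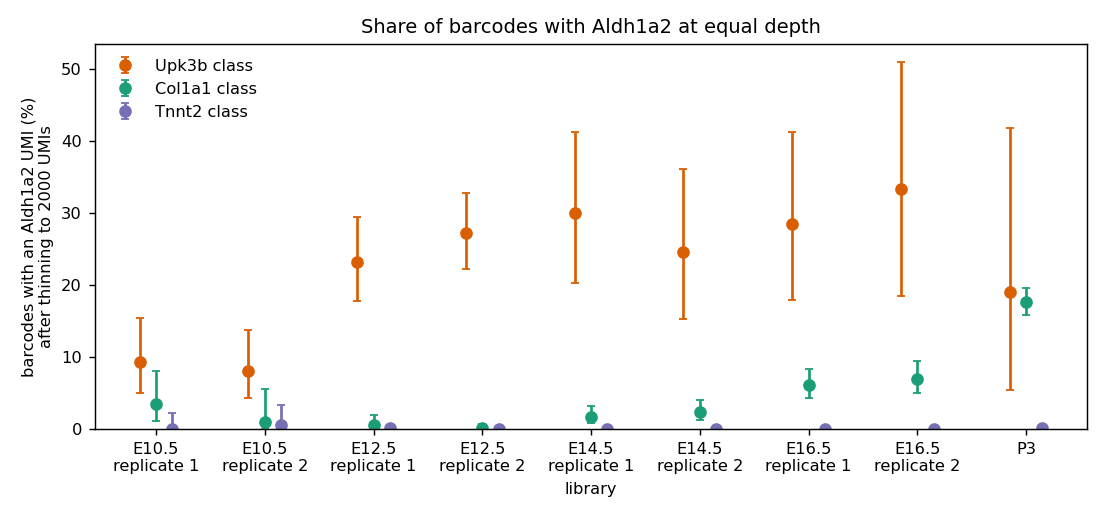
Share of barcodes with an Aldh1a2 UMI after thinning to 2000 UMIs (y axis, percent) in each E10.5 embryo library and each heart library (x axis) for the Upk3b, Col1a1 and Tnnt2 classes, with exact binomial 95% intervals. In the hearts the Col1a1 class goes from below 1% at E12.5 to 17.7% at P3, while the Upk3b class of the hearts stays between 19.0% and 33.3%.

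Barcodes with at least 3 Aldh1a2 UMIs, called carriers here, were counted by class. At E12.5 the Upk3b class held 101 of 108 and 118 of 130 carriers. At E16.5 it held 41 of 84 and 15 of 55, and the Col1a1 class held 38 and 30. At P3 the Col1a1 class held 351 of 380. The Upk3b class itself shrank from 215 and 293 barcodes at E12.5 to 63 and 36 at E16.5, and nearly all of its E16.5 barcodes also passed the Col1a1 gate, so that these counts rest on class size and on the order of the gates. The leading genes of the P3 carriers, by the ratio of their level to that in the other barcodes, were Arsj (24.5-fold), Kcnk2 (22.5-fold) and Col26a1 (19.8-fold).

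Epicardial genes in the Col1a1 class were followed beside this rise. The summed level of the 10 epicardial markers in the Col1a1 class was 150 and 139 (E12.5), 159 and 169 (E14.5), 206 and 226 (E16.5), and 504 at P3, against 1323 to 5956 in the Upk3b class. Most of the P3 sum was Tcf21, a transcription factor of epicardium and cardiac fibroblasts, at 45.1 and 38.9 (E12.5), 40.3 and 47.7 (E14.5), 114 and 144 (E16.5), and 418 at P3. Of the others, Wt1, a transcription factor of the epicardium, was higher at E14.5 and E16.5 than at E12.5 in the Col1a1 class, at 11.7 and 10.7 (E12.5), 32.2 and 39.0 (E14.5) and 25.1 and 26.0 (E16.5), but was at 8.13 at P3. Tbx18 lay between 53.6 and 76.3 throughout. The keratins were lower at the later stage, Krt19 going from 13.5 and 9.999 at E12.5 to 2.69 and 0.802 at E16.5, Krt18 from 8.24 and 8.27 to 0.754 and 0.481, and Krt8 from 6.59 and 5.19 to 0.323 and 0. The surface genes Upk1b, Msln, Lrrn4 and Gpm6a stayed at or below 2.71, 1.08, 4.51 and 2.17. The part of these markers in the rise of Aldh1a2 was not tested. Whether the rise in Aldh1a2 came from more cells of a kind or from more RNA per cell cannot be told apart in class sums.

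Within the Col1a1 class, Aldh1a2 was less frequent at P3 in barcodes with the breakdown enzyme Cyp26a1. These pairs were chosen after their values were seen and are given as a description. Barcodes are not replicates, the intervals cover counting error only, and whether they overlap is not a test. At P3, 5 of 65 barcodes with a Cyp26a1 UMI had an Aldh1a2 UMI (7.69%, exact 95% interval 2.54% to 17.0%), against 46.1% (43.6% to 48.6%) of those without. The P3 matrix joins barcodes of 2 suffixes, which differed in the levels of both genes, and within each suffix the shares were 1 of 33 (0.0767% to 15.8%) against 35.1% (31.3% to 39.1%), and 4 of 32 (3.51% to 29.0%) against 52.7% (49.6% to 55.9%). At E16.5 the shares were 2 of 22 (1.12% to 29.2%) against 30.7% (27.0% to 34.6%), where the intervals overlapped, and 0 of 15 (up to 21.8%) against 25.6% (21.9% to 29.5%). At E14.5 the shares were 0 of 20 (up to 16.8%) and 0 of 24 (up to 14.2%) against 9.03% and 10%, where the intervals overlapped. For Crabp1, Aldh1a2 was in 0 of 87 and 1 of 58 barcodes with a Crabp1 UMI at E14.5 (0% to 4.15% and 0.0436% to 9.24%), against 10.3% (7.72% to 13.3%) and 10.504% (7.90% to 13.6%) of those without, and the intervals overlapped in replicate 2. At E12.5 it was in 1 of 164 and 1 of 261 against 2.86% and 3.61%, where the intervals overlapped, and at P3 in 4 of 17 (6.81% to 49.9%) against 44.8%, which lay inside that interval. With Aldh1a1, Aldh1a2 was found at E16.5 in 12.96% (5.37% to 24.9%) and 2.63% (0.0666% to 13.8%) of barcodes against 31.6% and 26.6% of those without, but at P3 in 43.5% against 44.8%. At E14.5 it was in 0 of 18 (up to 18.5%) and 0 of 11 (up to 28.5%) barcodes with Aldh1a1 against 8.99% and 9.75%, where the intervals overlapped. At E12.5 it was in 1 of 5 and 0 of 4, too few to set against the others, and no difference between stages was tested. For Rarb the shares were 23.96% and 26.8% with and 31.0% and 24.6% without at E16.5, and 39.8% against 45.1% at P3, so that the E16.5 libraries differed in direction.

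**Figure D3:**
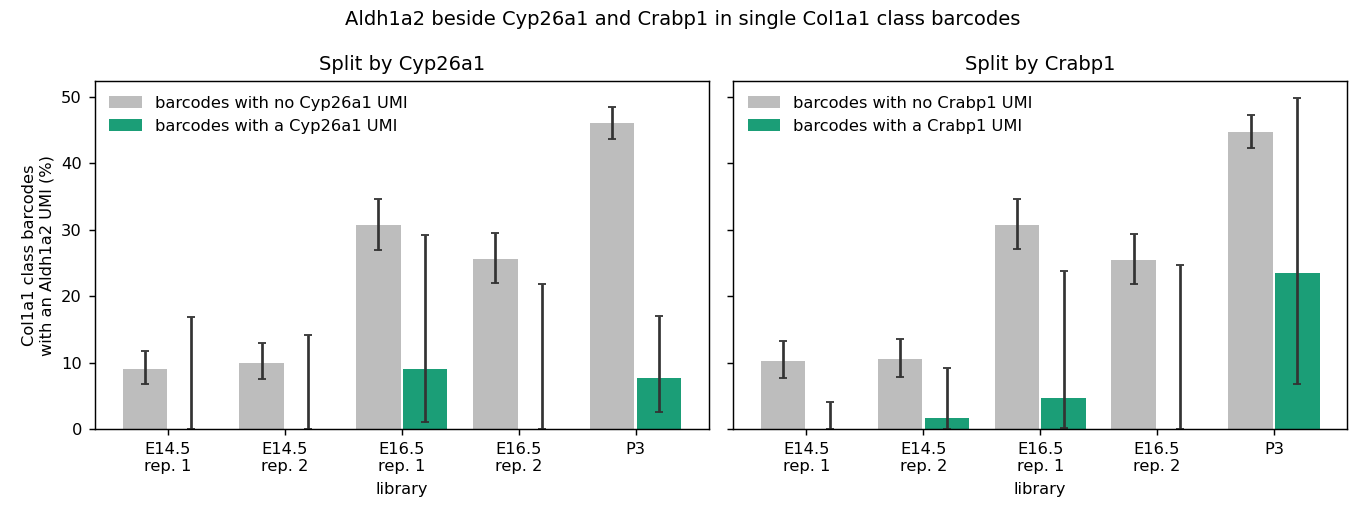
Share of Col1a1 class barcodes with an Aldh1a2 UMI (y axis, percent) in each E14.5, E16.5 and P3 heart library (x axis), split by presence of a Cyp26a1 UMI (left) or a Crabp1 UMI (right), with exact binomial 95% intervals. The E12.5 libraries are not drawn. The P3 bars stand at 7.69% with Cyp26a1 and 46.1% without it.

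Tcf21 was compared in the same way, also after its values were seen. In the Col1a1 class Tcf21 was found in 80.4% and 78.7% of barcodes with an Aldh1a2 UMI at E16.5 and in 95.3% at P3, against 57.8%, 48.3% and 68.5% of those without. Barcodes with Aldh1a2 were also deeper, with medians of 17019, 13452 and 11787 UMIs against 13471, 9528 and 9760, and the part of depth was not tested. Among barcodes with a Cyp26a1 UMI it was found in 31.8% and 6.67% at E16.5 and in 24.6% at P3, against 65.8%, 57.3% and 82.7% of those without.

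The other dehydrogenases of the Col1a1 class rose too. Aldh1a1 was at 0.824 and 0.385 (E12.5), 3.68 and 2.17 (E14.5), 7.97 and 8.98 (E16.5), and 26.7 (24.4 to 29.1) at P3, a log2 fold change of 4.07 ± 0.45 (SE, adjusted p = 3.7e-08) from E12.5 to E16.5. The E12.5 levels rest on few molecules, with an Aldh1a1 UMI in 5 of 374 and 4 of 704 barcodes. Aldh1a3 was at 2.64 and 1.54, 4.53 and 2.71, 5.60 and 4.17, and 11.9 (10.4 to 13.6). Its E14.5 and E16.5 levels overlapped, and its change of 1.49 ± 0.45 (SE, adjusted p = 0.0087) from E12.5 to E16.5 lost its call without E12.5 replicate 2 (1.12, adjusted p = 0.096) or E16.5 replicate 1 (1.24, adjusted p = 0.13) and turned to -0.21 with doubled gates. In the Tnnt2 class Aldh1a3 went the other way, from 1.06 and 0.995 at E12.5 to 0.369 and 0.321 (E16.5), a log2 fold change of -1.39 ± 0.39 (SE, adjusted p = 0.0036). These values lay at or below those of the barcodes of 1 to 100 UMIs, which gave 1.54 and 1.67 at E12.5 and 1.35 and 0.663 at E16.5.

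The binding protein Crabp1 marked the Col1a1 class at E12.5 and was nearly gone by E16.5. Its level there was 94.9 and 81.7 (E12.5), 38.6 and 26.5 (E14.5), 3.66 and 2.89 (E16.5), and 1.42 (0.934 to 2.06) at P3. No stages overlapped, and the log2 fold change from E12.5 to E16.5 was -4.56 ± 0.22 (SE, adjusted p = 3.6e-15). Free RNA fell with it, from 9.95 and 12.8 in barcodes of 1 to 100 UMIs at E12.5 to 0.676 and 0.884 at E16.5. Against the other classes summed, the Col1a1 class was higher by 2.93 ± 0.17 on the log2 scale (SE, adjusted p = 1.9e-12).

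In the Tnnt2 class Crabp1 was at 8.76 and 7.63, 7.14 and 6.29, 0.426 and 0.341, and 0.164 at P3, below the level of free RNA in each embryonic library. Even so it held 36 and 37 carriers at E12.5 and 41 and 20 at E14.5. Their leading genes in the respective libraries were Amph, Tgfbi and Mybpc1, then Rasl11a, Eln and Kif26a, then Mybpc1, Isl1 and Rspo3, and last Rasl11a, Kif26a and Cybrd1. Isl1 is a transcription factor of second heart field and outflow tract progenitors. The test of the Tnnt2 class over the mean of the other classes gave Crabp1 a log2 fold change of 1.58, but with the other classes summed it was -1.43 ± 0.14. In the Upk3b class Crabp1 gave 9.13 and 8.16 (E12.5), 0 and 0 (E14.5), and 0.951 and 2.13 (E16.5), and in the Cdh5 class it gave 0.336 and 1.35, 0.121 and 0.668, and 0 and 0.

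Crabp2, which hands retinoic acid to its nuclear receptors, was highest in the Cdh5 class, except in E14.5 replicate 1, where the Upk3b class gave 7.86. Its level in the Cdh5 class was 8.40 and 10.8 (E12.5), 2.55 and 4.34 (E14.5), 2.36 and 2.55 (E16.5), and 1.81 (1.21 to 2.60) at P3, with E12.5 above all later libraries. The log2 fold change over the mean of the other classes was 2.77 ± 0.32 (SE, adjusted p = 1.7e-08). From E12.5 to E16.5 Crabp2 fell by 2.09 ± 0.33 (SE, adjusted p = 1.2e-05) on the log2 scale in the Cdh5 class, by 2.44 ± 0.44 in the Col1a1 class and by 2.83 ± 0.48 in the Tnnt2 class. Free RNA went from 3.09 and 2.42 to 0.507 and 0.221 over the same stages.

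UMIs of Rarb, the retinoic acid receptor beta, were found in all classes. The Col1a1 class gave 18.8 and 18.2 (E12.5), 20.5 and 18.2 (E14.5), 13.2 and 12.7 (E16.5), and 10.2 at P3. The Tnnt2 class gave 7.43 to 9.32 and the Cdh5 class 4.49 to 6.79, beside 5.52 to 8.25 in barcodes of 1 to 100 UMIs. The Col1a1 and Tnnt2 classes lay above free RNA in every embryonic heart library, the Tnnt2 class by little. The range of the Cdh5 class overlapped that of free RNA, so these values do not set it apart from free RNA. The Col1a1 class had a log2 fold change of 0.98 ± 0.08 (SE, adjusted p = 8.0e-12) over the mean of the others. The fall of 0.35 ± 0.13 (SE, adjusted p = 0.032) from E12.5 to E16.5 in the Col1a1 class lost its call without any single library (adjusted p = 0.064 to 0.16). In the Tnnt2 class the change was -0.02 ± 0.09.

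Cyp26b1, a retinoic acid hydroxylase of the embryonic vasculature and skeleton, marked the Cdh5 class of the embryonic hearts. It gave 13.3 and 14.3 (E12.5), 13.2 and 13.7 (E14.5), 4.27 and 5.30 (E16.5), and 1.12 (0.665 to 1.77) at P3. E12.5 and E14.5 did not differ beyond their spread, and both lay above E16.5. Against the other classes summed, the log2 fold change was 4.09 ± 0.15 (SE, adjusted p = 1.5e-14), and from E12.5 to E16.5 the level fell by 1.66 ± 0.23 (SE, adjusted p = 1.8e-06). Of the carriers, 31 of 38 and 38 of 43 lay in the Cdh5 class at E12.5. Their leading genes were Tmem255b, Nppc and Isl1 in the E12.5 replicate 1 library and Serpinb9b, Wnt9b and Adamts8 in the other, and Nppc and Wnt9b are known from endocardium. The Col1a1 class gave 1.32 and 0.673, 5.37 and 5.60, and 1.18 and 1.44, with E14.5 above both other stages.

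Cyp26a1, the retinoic acid hydroxylase of the embryonic tail bud, stood out in the Col1a1 class of the heart. It gave 2.64 and 1.25 (E12.5), 7.35 and 9.93 (E14.5), 5.71 and 3.53 (E16.5), and 12.7 (11.2 to 14.46) at P3, and no more than 0.442 in the other 3 classes. Against the other classes summed, the log2 fold change was 5.73 ± 0.32 (SE, adjusted p = 1.4e-12). The change from E12.5 to E16.5, 1.56 ± 0.41 (SE, adjusted p = 0.0037), lost its call without E12.5 replicate 2 (1.05, adjusted p = 0.097) or E16.5 replicate 1 (1.13, adjusted p = 0.15). At P3 all 30 carriers lay in the Col1a1 class, and their leading genes over the rest of that class were Aqp5 (157-fold), Chrdl1 (96.9-fold) and Npy (65.7-fold). Cyp26c1 gave 0 UMIs in every heart class and in the barcodes outside the gates.

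Counted over the class comparisons of the embryonic hearts, 7 of 8 genes were called higher in the Col1a1 class, beside 62.4% of all genes tested in either direction. The comparison is with the mean of the other classes, so that a higher call does not make the Col1a1 class the highest. In every embryonic heart library Aldh1a1 and Aldh1a2 were higher in the Upk3b class than in the Col1a1 class, and Cyp26b1 was higher in the Cdh5 class. In the Tnnt2 class 3 were called, 1 higher and 2 lower, beside 75.9%, and the count was 1 without E16.5 replicate 1 and 7 with the other classes summed, all of them lower. In the Cdh5 class 5 were called, Crabp2 and Cyp26b1 higher and Aldh1a1, Aldh1a2 and Rarb lower, beside 67.3%. The lower call of Aldh1a1 was lost without E14.5 replicate 1, which held 2 of the few UMIs. Read against these shares, the counts alone do not set the genes apart.

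Between E12.5 and E16.5, 1 of 8 genes was called in the Upk3b class (22.6% of all genes), 7 in the Col1a1 class with 4 up and 3 down (39.6%), 3 in the Tnnt2 class, all down (57.9%), and 3 in the Cdh5 class, all down (40.4%). The Col1a1 count was 4 without E12.5 replicate 2 or without E16.5 replicate 1. Set against the mean change of the other classes, 0 genes were called for the Upk3b class (11.8% of all genes) and 0 for the Cdh5 class (17.7%) by edgeR. DESeq2 also called 0 in each, and at an unadjusted p below 0.05 there were 1 and 2. For the Col1a1 class 2 were called, Aldh1a2 and Aldh1a3 (20.1%), and for the Tnnt2 class 2, Aldh1a3 and Cyp26b1 (30.9%), of which none was called without E16.5 replicate 1 or replicate 2.

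**Figure D4:**
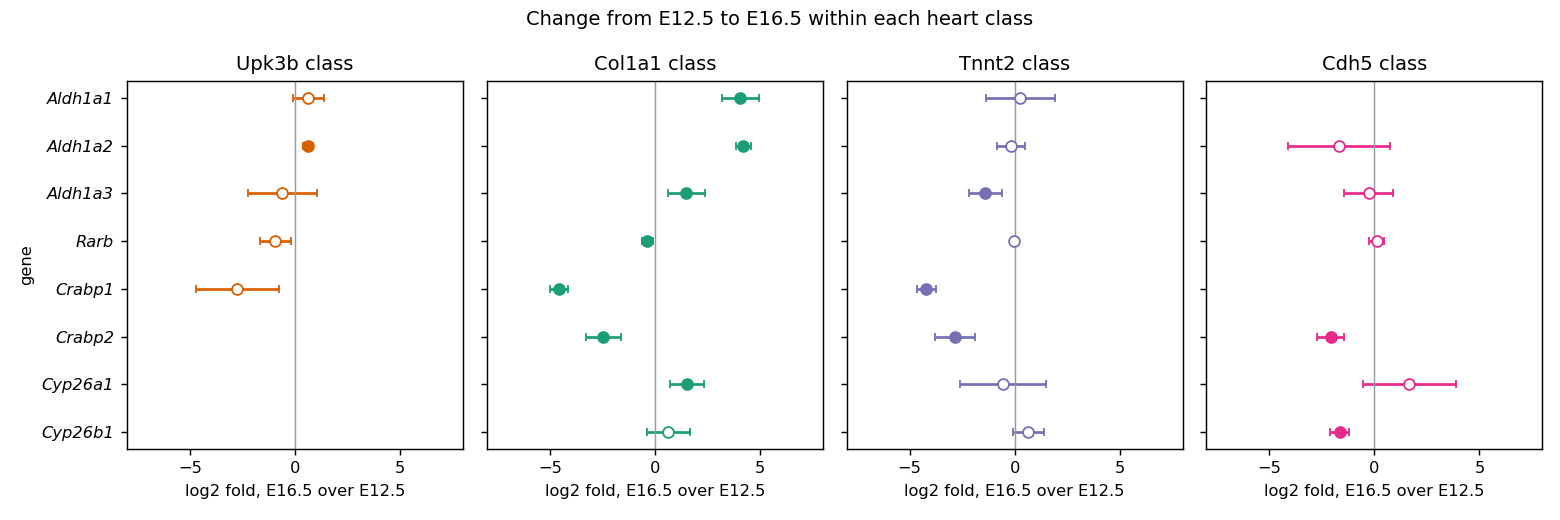
Log2 fold change from E12.5 to E16.5 (x axis) of 8 retinoic acid genes (y axis) within each of 4 heart classes, with 95% intervals from the SE and filled points where the adjusted p was below 0.05. A gene with no UMIs in a class at E12.5 or E16.5, such as Crabp1 in the Cdh5 class, is not drawn there. In the Col1a1 class Aldh1a2 stands at 4.23 and Crabp1 at -4.56, and in the Cdh5 class Cyp26b1 stands at -1.66.

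The P3 matrix held barcodes with 2 suffixes, 1 and 2. The labels list 2 P3 samples, and whether they are separate hearts and which suffix is which sample is not given in the sources used here. The suffixes differed beyond counting error. Aldh1a2 in the Col1a1 class was at 70.1 (64.2 to 76.3) with suffix 1 and 165 (158 to 173) with suffix 2. Aldh1a1 was at 38.8 (34.4 to 43.5) and 18.8 (16.4 to 21.5), and Cyp26a1 at 20.5 (17.4 to 24.02) and 7.70 (6.19 to 9.48), so that these were higher with suffix 1. Rarb in the Tnnt2 class was at 6.80 (6.23 to 7.40) and 15.3 (13.9 to 16.7). No mitochondrial ceiling was applied to these levels. The median mitochondrial share of the P3 Tnnt2 class was 22.1%, and the study's P3 ceiling of 20% would keep 2585 of its 7048 barcodes. The part of this in the difference between suffixes was not tested. The P3 levels given above are sums over both suffixes, and no test was made at P3 or at E8.5, each being 1 matrix.

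In the embryos Aldh1a2 was high in the Meox1 class of paraxial mesoderm and, at E10.5, higher still in the Upk3b class. Its level in the Meox1 class was 83.8 (79.0 to 88.8) at E8.5 and 43.6 and 36.7 at E10.5, with a log2 fold change at E10.5 of 2.53 ± 0.10 (SE, adjusted p = 5.9e-16, edgeR over 13040 genes) over the mean of the other 6 classes. The Upk3b class of E10.5 gave 54.8 and 68.5, a log2 fold change of 3.19 ± 0.16 (SE, adjusted p = 1.2e-13), which was 2.90 and 3.51 in the single libraries. At E8.5 that class gave 8.18 from 4 UMIs. The Cdh5 and Tnnt2 classes gave 1.48 to 2.41 at E10.5, below the 16.4 and 17.2 of free RNA. Of the 301 carriers at E8.5, 133 lay in the Meox1 class and 135 in no gate, and the leading genes included Pax1 (16.6-fold), a sclerotome factor, and AI646519 (15.02-fold). At E10.5 the leading genes were Qpct, Wt1 and Ntm in replicate 1 and Qpct, Osr1 and Arg1 in replicate 2, and Wt1 and Osr1 are known from coelomic lining and intermediate mesoderm.

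Aldh1a1 was scarce in the embryos, at 5.61 and 5.71 in the E10.5 Upk3b class and at or below 1.37 in the other 6. Aldh1a3 was at 16.7 at E8.5 and 16.3 and 20.04 at E10.5 in the Sox2 class, 14.9, 17.5 and 20.2 in ungated barcodes, and 17.7, 17.2 and 17.5 in free RNA. At E10.5 the Upk3b, Meox1, Sox10 and Cdh5 classes gave 7.84 to 17.1, and the Tnnt2 and Col1a1 classes 1.90 to 2.66. Its E10.5 carriers were led by Six3 (3.82-fold and 5.43-fold), a factor of the forebrain and eye field. By the study's methods, head and limbs were cut off before the embryos were digested. Whether head tissue remained in the suspensions was not tested.

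Among the 7 gated classes Crabp1 was highest in the Sox10 class and Crabp2 in the Sox2 class. Crabp1 reached 3174 at E8.5 and 1644 and 1771 at E10.5 in the Sox10 class, with 1768, 849 and 888 in the Sox2 class. Crabp2 reached 1124, 816 and 820 in the Sox2 class and 823, 603 and 657 in the Sox10 class. Free RNA was rich in both, with 1360, 1029 and 1050 for Crabp1 and 506, 453 and 466 for Crabp2, so that the 849 and 888 of Crabp1 in the E10.5 Sox2 class lay below it, and the 128 to 179 in the Cdh5 and Tnnt2 classes far below it. At E10.5 the Sox10 class was higher for Crabp1 by 2.53 ± 0.07 and for Crabp2 by 2.22 ± 0.05 on the log2 scale (SE, adjusted p = 3.7e-18 and 1.5e-20), and the Sox2 class by 1.37 ± 0.08 and 2.64 ± 0.05 (SE, adjusted p = 2.3e-13 and 7.3e-23). Carriers of Crabp2 at E8.5 were led by Pax6, Hes5 and Pou3f2, which are genes of neural progenitors. Carriers of Crabp1 at E10.5 were led by Prrx1, Msx1 and Tubb3 in both libraries.

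Rarb was highest in the Upk3b class of E10.5, at 17.7 and 13.9, followed by the Col1a1 class at 15.2 and 11.4, with which it overlapped. The log2 fold change of the Upk3b class was 0.90 ± 0.20 (SE, adjusted p = 0.0016). The Cdh5, Meox1 and Sox10 classes gave 5.36 to 6.96, near the 7.82 and 6.71 of free RNA.

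The breakdown enzymes Cyp26b1 and Cyp26a1 differed in the leading genes of their carriers in the embryo, and their places were not compared by a test. Cyp26b1 was at 8.60 (6.23 to 11.6) in the Cdh5 class at E8.5 and at 41.0 and 37.1 at E10.5, where its log2 fold change was 4.53 ± 0.14 (SE, adjusted p = 1.2e-18) and 5.70 without replicate 1. The Sox2 class gave 8.46, 9.19 and 9.89. Its carriers at E8.5, 31 of 57 in the Sox2 class, had among their leading genes Egr2 (30.7-fold), a factor of the hindbrain rhombomeres, and Tmem35. At E10.5 they were led by the endothelial genes Adgrl4, Icam2 and Myct1 in replicate 1 and Cd93, Flt1 and Pecam1 in replicate 2. Leading genes are ranked by ratio and need only be found in at least 20% of carriers. They do not place most of these carriers in the Cdh5 class. Cyp26a1 carriers lay mostly in no gate, 74 of 89 at E8.5 and 98 of 123 and 130 of 170 at E10.5. Their leading genes were T, Fgf17 and Evx1os at E8.5, Cdx4, T and Hes7 in E10.5 replicate 1, and T, Cdx4 and Evx1os in replicate 2, which are genes of the tail bud and presomitic mesoderm. Cdx4 was 41.3-fold and 43.8-fold higher in the carriers of E10.5 than in other barcodes. In the Col1a1 class 8 of 32 barcodes had a Cyp26a1 UMI at E8.5, and 8 of 141 and 4 of 97 at E10.5. Cyp26c1 gave 2 UMIs in the Sox2 class at E8.5 and 4 and 10 at E10.5, and was not tested.

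**Figure D5:**
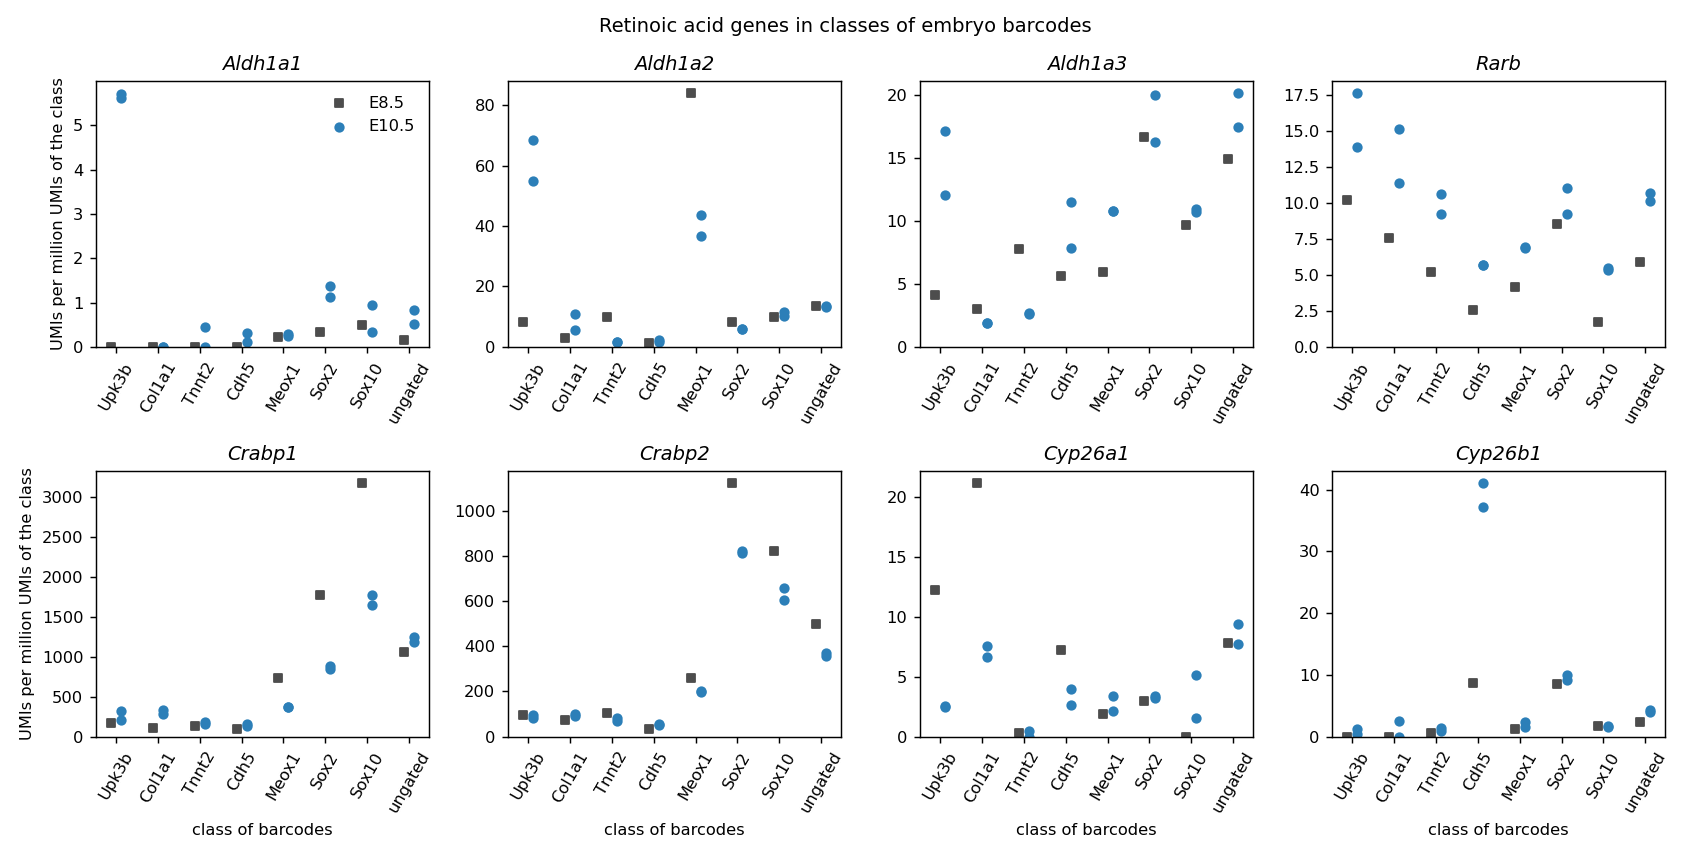
Level of 8 retinoic acid genes (y axis, UMIs per 1000000 UMIs of the class, a separate scale per gene) in 7 gated classes of embryo barcodes and in ungated barcodes (x axis) at E8.5 and E10.5, 1 point per library. Among the gated classes Aldh1a2 stands highest in the Meox1 class at E8.5 and in the Upk3b class at E10.5, and Cyp26b1 in the Cdh5 class at E10.5, at 41.0 and 37.1.

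Counted over the E10.5 comparisons, 7 of 8 genes were called in the Upk3b class (4 higher, 3 lower), beside 19.8% of all genes tested, and 4 with doubled gates. In the Col1a1 class 4 were called, 1 higher and 3 lower (22.1%), in the Tnnt2 class 6, all lower (48.7%), and in the Cdh5 class 6, 2 higher and 4 lower (57.7%). In the Meox1 class 4 were called, 3 higher and 1 lower (46.4%), in the Sox2 class 6, 5 higher and 1 lower (65.1%), and in the Sox10 class 3, 2 higher and 1 lower (38.7%). Some signs depended on how the other classes were joined. In the Meox1 class Crabp2 was at 0.33 against their mean but at -1.66 against their sum, and in the Sox2 class Cyp26b1 went from 1.96 to -0.01.

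Around these genes, 43 others of the vitamin A pathway had been listed, 42 were in the files and 34 were tested in the hearts. In the Upk3b class 17 were higher and 3 lower, with a median log2 fold change of 0.62 beside -0.09 for all genes, of which 51.2% were called. In the Col1a1 class 16 were higher and 8 lower (median 0.14 beside 0.01, with 62.4% of all genes called), in the Tnnt2 class 10 and 13 (-0.87 beside 0.02, with 75.9%), and in the Cdh5 class 13 and 12 (-0.01 beside -0.01, with 67.3%). Read against these shares, the counts do not set the pathway apart. Of 11 tested genes that retinoic acid is known to induce in embryos, 9 were higher and 0 lower in the Upk3b class (median 2.08), 6 and 2 in the Col1a1 class (0.76), 3 and 5 in the Tnnt2 class (-3.35) and 5 and 5 in the Cdh5 class (-0.32), beside the same shares of all genes. Rarres2, the chemerin gene and a member of that group, was at 170 and 132 (E12.5), 264 and 224 (E14.5), 1275 and 1001 (E16.5) and 3795 at P3 in the Upk3b class, with a log2 fold change over the other classes of 4.59 ± 0.08 (SE, adjusted p = 1.6e-26). Tbx5, a factor of the atria and inflow region, was higher in the Tnnt2 class by 2.59 ± 0.07 (SE, adjusted p = 1.2e-22).

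Other genes that handle retinol and its derivatives were followed by class. Rbp7, a retinol binding protein of endothelium, was at 40.8 and 12.52 (E12.5), 29.3 and 39.6 (E14.5), 143 and 126 (E16.5) and 640 at P3 in the Cdh5 class, and rose there by 2.25 ± 0.26 (SE, adjusted p = 1.4e-07) from E12.5 to E16.5. Dhrs3, which turns retinal back to retinol, rose by 2.34 ± 0.25 (SE, adjusted p = 2.5e-08) in that class. The receptor Rarg was higher in the Col1a1 class by 2.79 ± 0.13 (SE, adjusted p = 2.4e-17). At E10.5, 32 pathway genes were tested. Of these 11 were higher and 0 lower in the Upk3b class (19.8% of all genes called), 8 and 4 in the Col1a1 class (22.1%), 7 and 17 in the Tnnt2 class (48.7%), 7 and 11 in the Cdh5 class (57.7%), 12 and 13 in the Sox2 class (65.1%) and 9 and 6 in the Sox10 class (38.7%). In the Meox1 class 19 were higher and 7 lower (46.4%), led by Cdx1 (3.37 ± 0.20), a target of the signal, and Stra6 (2.40 ± 0.14), a retinol transporter.

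The genes most like each one were ranked by Pearson correlation of the log2 level, after adding 1, over 49 class sums of all stages, among 13150 genes. The sums share libraries, and depth and tissue vary between embryos and hearts, so the values describe likeness only. Closest to Aldh1a2 were Plekhh2 (0.89), Gas1 (0.88) and Rdh10 (0.87), the retinol dehydrogenase that supplies its substrate. Rdh10 was at 7.93 and 13.5 (E12.5), 21.6 and 22.8 (E14.5), 22.8 and 27.6 (E16.5) and 23.6 at P3 in the Upk3b class and at 1.49 to 2.44 in the Tnnt2 class. Closest to Aldh1a1 were Wnt9a (0.93), Sema3d (0.91) and Cys1 (0.91). Closest to Cyp26b1 were Ripply3 (0.84), Prex1 (0.82) and Mfng (0.81), and closest to Rarb were Ptprs (0.81), Epha3 (0.80) and Snapin (0.76). For Crabp1, Wasf3 stood nearest (0.94), for Crabp2 Ptges3 (0.95), for Aldh1a3 Ift27 (0.83) and for Cyp26a1 Ppp1r14a (0.77).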

How the data were processed

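Single-cell suspensions of embryos and hearts were sequenced as 3′ droplet libraries. What the authors deposited are raw UMI counts of each gene in each barcode, made with Cell Ranger on mm10. The submitters' processing notes name Cell Ranger 2.1.1 and Seurat 3.1.1, whereas the file headers name other releases. The labels name trypsin and v2 reagents, and the methods name collagenase and v3 reagents, and the part of this was not tested. The P3 matrix and 1 E16.5 matrix each pool 2 sample records that the labels give.

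Barcodes with at least 2000 UMIs were gated per 10000 UMIs (Tnnt2 10, Col1a1 3, all others 1, each with at least 2 UMIs). Combined gates went to Upk3b over Col1a1, Meox1 over Col1a1 and Sox10 over Sox2 or Col1a1, and all others were left out as mixed, the only treatment of doublets. Counts were summed per class and library (at least 20 barcodes), and tested with edgeR 4.0.16 (R 4.3.3; TMM, filterByExpr, quasi-likelihood, Benjamini-Hochberg over all genes, threshold 0.05), 24 heart sums and 14 E10.5 sums apart. The study names no test between classes. SE is the absolute log2 fold change over the square root of F. Intervals of levels and shares cover counting error only, at 95%, and those of log2 fold changes come from the SE. DESeq2 1.42.0, other filters, gates and floors, thinning, the library as a block and leaving out each library were alternatives, and summing the other classes was chosen after seeing the data. Since the class sums of a library come from the same suspension, they pair by design. The correlation of their deviations was low, with medians of 0.117 at E12.5, 0.037 at E14.5, 0.045 at E16.5 and 0.015 at E10.5.

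The genes, lists and tests were chosen with earlier results of these data known. Named genes are the 9 listed, the 3 pathway genes with the largest change past the threshold in each direction, the 3 most correlated genes and the 3 leading genes of carriers (a gene detected in at least 20% of carriers). Some genes that this rule names are not reported here. Epicardial markers named by value and co-detection pairs were chosen after their values were seen. In simulated counts of the Upk3b comparison over 13757 genes, 65 of 100 genes changed 2-fold and 96 of 100 changed 4-fold were recovered. Each sum was drawn independently, so that the pairing of sums within a library was not simulated. False calls are not reported here.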

Additional observations from a re-analysis of the deposited data

Results flagged for a closer look

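These 4 results are listed because the change from E12.5 to E16.5 in a heart class differed from the mean change of the other 3 classes by edgeR's test of the difference itself. In the Col1a1 class the difference was 4.65 for Aldh1a2 and 2.25 for Aldh1a3 on the log2 scale. In the Tnnt2 class it was -1.59 for Aldh1a3 and 3.35 for Cyp26b1. Of these, Aldh1a2 was called without each single library, but its difference includes the Tnnt2 and Cdh5 classes, whose Aldh1a2 levels lay below free RNA. Aldh1a3 in the Col1a1 class was not called without E12.5 replicate 2 (1.49) or E16.5 replicate 1 (2.36) and was at 0.16 with doubled gates. The value for Cyp26b1 rests on an Upk3b class with 0 UMIs at E16.5 and depends on the prior count of the fit.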

How the results depend on the processing

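Results are counts of the 8 tested genes called in each comparison. Leaving out each library in turn gave 2 to 4 called in the heart Upk3b class, 6 to 7 in Col1a1, 1 to 3 in Tnnt2 and 4 to 5 in Cdh5. From E12.5 to E16.5 it gave 0 to 3 in Upk3b, 4 to 6 in Col1a1, 3 to 4 in Tnnt2 and 2 to 3 in Cdh5, and for the change minus that of the other classes 1 to 3 in Col1a1, 0 to 1 in Tnnt2 and 0 to 1 in Cdh5. At E10.5 a single library leaves no test, and of the log2 fold changes 11 moved beyond the replicate spread without replicate 1 and 12 without replicate 2, with Cyp26b1 turning in Meox1 (0.31) and Sox10 (0.36) without replicate 1 and Rarb in Sox2 (-0.03) without replicate 2. Thinning each barcode to 2000 UMIs, at which fewer genes are tested, gave 3 for Col1a1, 0 for Tnnt2 and 3 for Cdh5 in hearts, 0, 4, 1 and 1 for the changes in Upk3b, Col1a1, Tnnt2 and Cdh5, 1 and 0 for the differences of change in Col1a1 and Tnnt2, and at E10.5 3 in Upk3b, 1 in Col1a1, 2 in Tnnt2, 1 in Meox1 and 3 in Sox2. Summing the other classes gave 5, 7 and 8 in the heart Upk3b, Tnnt2 and Cdh5 classes and 7 in E10.5 Meox1. DESeq2 gave 7 in heart Tnnt2, 2 for the Upk3b change and 5 in E10.5 Sox10. With no filter on low counts there were 2 for the Upk3b change, 1 and 1 for the differences of change in Upk3b and Cdh5, and 5 in E10.5 Sox10. Doubled gates gave 2 for the Upk3b change, 1 and 1 for the differences in Col1a1 and Tnnt2, 4 in E10.5 Upk3b and 2 in E10.5 Col1a1. The mitochondrial ceilings gave 2 for the Upk3b change, and a floor of 4000 UMIs gave 1 for the Cdh5 difference. Apart from thinning and summing, the cause was not tested.

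Signs turned, on the log2 scale, when the other classes were summed for Crabp1 in heart Tnnt2 (-1.43), Aldh1a3 and Cyp26a1 in heart Cdh5 (0.65 and -1.51), Aldh1a3 in E10.5 Upk3b, Cdh5 and Meox1 (-0.069, -0.50 and -0.47), Crabp2 in E10.5 Meox1 (-1.66) and Cyp26b1 in E10.5 Sox2 (-0.012). Doubled gates turned Aldh1a3 for the Col1a1 change (-0.21), Aldh1a3 and Crabp1 in E10.5 Col1a1 (0.32 and 0.30) and Cyp26a1 in E10.5 Sox10 (-2.40). Thinning turned Cyp26b1 in E10.5 Tnnt2 (1.34). With the library as a block, the 15 counts that it could be fitted for stayed within 1.5 times, for example 7 in heart Col1a1, and of single genes only Aldh1a3 in E10.5 Sox10 changed its call, to higher (0.56). Contrasts between stages admit no block. Keeping only barcodes with exactly 1 gate left under 20 barcodes in the late Upk3b class and ran for 10 comparisons. Of the levels at E8.5 and P3, doubled gates moved 17 beyond their interval, all at E8.5, and left 41, and the mitochondrial ceilings moved 5, all in the P3 Tnnt2 class, and left 64. Of the thinned shares doubled gates moved 6 and left 188. Cyp26c1, with few or no UMIs in every class, could not be tested at this depth, and calls of genes with about 10 UMIs or fewer in a class rest on few molecules.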
